A study of Mus musculus with 24 samples.

Results

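Glycolysis, polyol and pentose phosphate genes of the mouse lens were followed as 37 gene symbols: the carriers that bring glucose in and lactate out, the enzymes from hexokinase to lactate dehydrogenase, the regulators Pfkfb and Pdk with Pdha1, the polyol enzymes aldose reductase (Akr1b3) and sorbitol dehydrogenase (Sord), and 4 enzymes of the pentose phosphate pathway. They were found by symbol in the mRNA tables. Of 30705 genes listed there, 36 were members; Pkm2 was not among the symbols, while Pkm was. Lenses came from C57BL/6 mice of 6 ages: E15 and E18 are embryonic days, and P0, P3, P6 and P9 count days from birth. Each age has 2 pools (A and B), each of 8 to 9 pups. The 12 mRNA libraries are used here. Stage is the only difference between the groups that the labels give; no genotype or treatment differs, and each library is whole lens, so epithelium and fiber cells are measured together. The pools are separate animals, and the tests between stages measure the spread between pools.

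The lens has no blood vessels, and its mature fiber cells have lost their nuclei and mitochondria, so it draws most of its ATP from glucose that is broken down to lactate. Many glycolytic steps are served by isozymes with different tissue ranges, such as aldolase A (muscle and most cells) and aldolase C (brain), or the enolases alpha (most cells), gamma (neurons) and beta (muscle). The pentose phosphate pathway supplies NADPH, which keeps lens glutathione reduced, and the polyol pathway turns glucose into sorbitol and then fructose; sorbitol that builds up in fiber cells is a known route to sugar cataract.

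Levels are given as RPKM, reads per kilobase of transcript scaled to library size, as deposited, so they can be compared between genes. The estimated depth was 20150000 to 43700000 reads per library. Crystallin RNA, from 16 genes of lens structural proteins, took 27.5% to 61.3% of the summed RPKM and the most at P9, which lowers every other value there. Differences are therefore on a rescaled level, each library divided by its median ratio to the genes' geometric means (factors of 0.777 to 1.42), and tested as log2(rescaled RPKM + 1) with limma. They are relative to the median expressed gene, and they understate the change of low genes. Of the 36 members, 35 had at least 1 RPKM in at least 2 libraries and entered the test with 14405 genes. The E15 pools stood apart: the median gene differed by 0.292 log2 units from pool to pool at E15, against 0.110 to 0.156 at later ages. RNA of other cells moved with stage. The sum of 11 retinal progenitor and neuron markers was 1042 and 277 RPKM in the E15 pools, 678 and 635 at E18, and 23.7 to 98.7 in the 8 postnatal libraries. For 10 photoreceptor markers it was 139 and 328 RPKM at P9, against 4.42 to 22.4 in the embryonic libraries. Blood markers (6 genes) summed to 83.4 and 133 RPKM at P9, against 4809 and 4298 at E15. The 12 lens markers were present throughout, at 147369 and 141924 RPKM at P9, against 52290 and 81545 at E15. In whole lens, a change in the number of cells of a type and a change in RNA per cell cannot be told apart.

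The promoters of Aldoc and Eno3, the members that rose most, and of Ldha, which was lower in every postnatal library than in any embryonic one, are given here as in RefSeq for GRCm38.p6, 5′ to 3′ on the gene's strand. Each window holds 300 bases around the first start site listed. Capitals mark matches to ACGTG, the core of the hypoxia response element that HIF factors bind, on either strand (CACGT on the other); the E-box CACGTG holds a match on each strand.
Aldoc, chr11:78322823-78323122, plus strand
Aldoc: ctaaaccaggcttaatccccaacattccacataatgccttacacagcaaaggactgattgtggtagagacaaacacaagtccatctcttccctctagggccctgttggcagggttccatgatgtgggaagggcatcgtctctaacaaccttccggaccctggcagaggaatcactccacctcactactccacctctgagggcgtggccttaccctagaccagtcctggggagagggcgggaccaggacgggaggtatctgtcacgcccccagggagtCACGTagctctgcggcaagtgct
Eno3, chr11:70656926-70657225, plus strand
Eno3: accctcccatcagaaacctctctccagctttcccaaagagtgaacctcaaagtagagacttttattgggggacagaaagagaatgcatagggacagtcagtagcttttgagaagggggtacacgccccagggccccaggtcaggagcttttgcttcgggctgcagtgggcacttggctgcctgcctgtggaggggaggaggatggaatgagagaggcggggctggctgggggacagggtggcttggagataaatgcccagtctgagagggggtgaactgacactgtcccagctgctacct
Ldha, chr7:46845554-46845853, plus strand
Ldha: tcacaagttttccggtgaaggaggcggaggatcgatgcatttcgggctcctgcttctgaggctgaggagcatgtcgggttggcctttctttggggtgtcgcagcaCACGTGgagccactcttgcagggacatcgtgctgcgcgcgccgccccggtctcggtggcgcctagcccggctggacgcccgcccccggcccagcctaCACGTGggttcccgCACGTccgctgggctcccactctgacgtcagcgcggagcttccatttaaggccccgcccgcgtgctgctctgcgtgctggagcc
The Ldha promoter held 5 matches, counting the overlapping ones inside 2 E-boxes, the nearest 34 bases before the start site. Aldoc held 1 match, 28 bases after the start site, and Eno3 held 0. Of the 36 members, 34 had a promoter in the RefSeq table; Slc2a3 and Akr1b3 were not matched. ACGTG was present in 15 of the 34 (44.1%), against 19.6% of all 32851 promoters of that length, and CACGTG in 5 (14.7%), against 7.15%. A match describes the letters only, and Aldoc and Ldha each have a further start site that is not shown.

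The members higher at P9 than at E15 were aldolase C, the beta and gamma enolases, hexokinase 2, sorbitol dehydrogenase, transketolase and 3 regulators, while their partners aldolase A, alpha-enolase and hexokinase 1 did not pass. Of the 35 members tested, 19 changed over the 6 stages in limma's joint test (adjusted p below 0.05), where 47.5% of all genes did. At P9 against E15, 12 members were called (40.9% of all genes). Of these 9 were higher (Aldoc, Eno3, Eno2, Sord, Pdk2, Pfkfb3, Hk2, Tkt and Pfkfb2), against a background of 21.3% of all genes higher. Ldhb, Pdk3 and Pgd were lower, 3 of 35, where 19.6% of all genes were lower. The other 23 did not pass. The median log2 difference was 0.01 over the members and -0.01 over all genes. Left out of the fit in turn, E15 A gave 11 higher and 3 lower, and E15 B gave 10 higher and 5 lower; without P9 A, 1 was lower. With the retinal gene Rax as a covariate 13 members were called (30.7% of all genes), 10 of them also called without it. Ldhb and Pdk3 were lost, and Pfkp, Slc16a1 and Taldo1 were gained. Rax itself moved with stage, with 75.6 and 20.2 RPKM at E15, 56.2 and 61.5 at E18 and 5.42 to 19.3 after birth. Fits with this covariate therefore cannot tell retinal RNA and stage apart, whether a call is kept or lost.

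**Figure D1:**
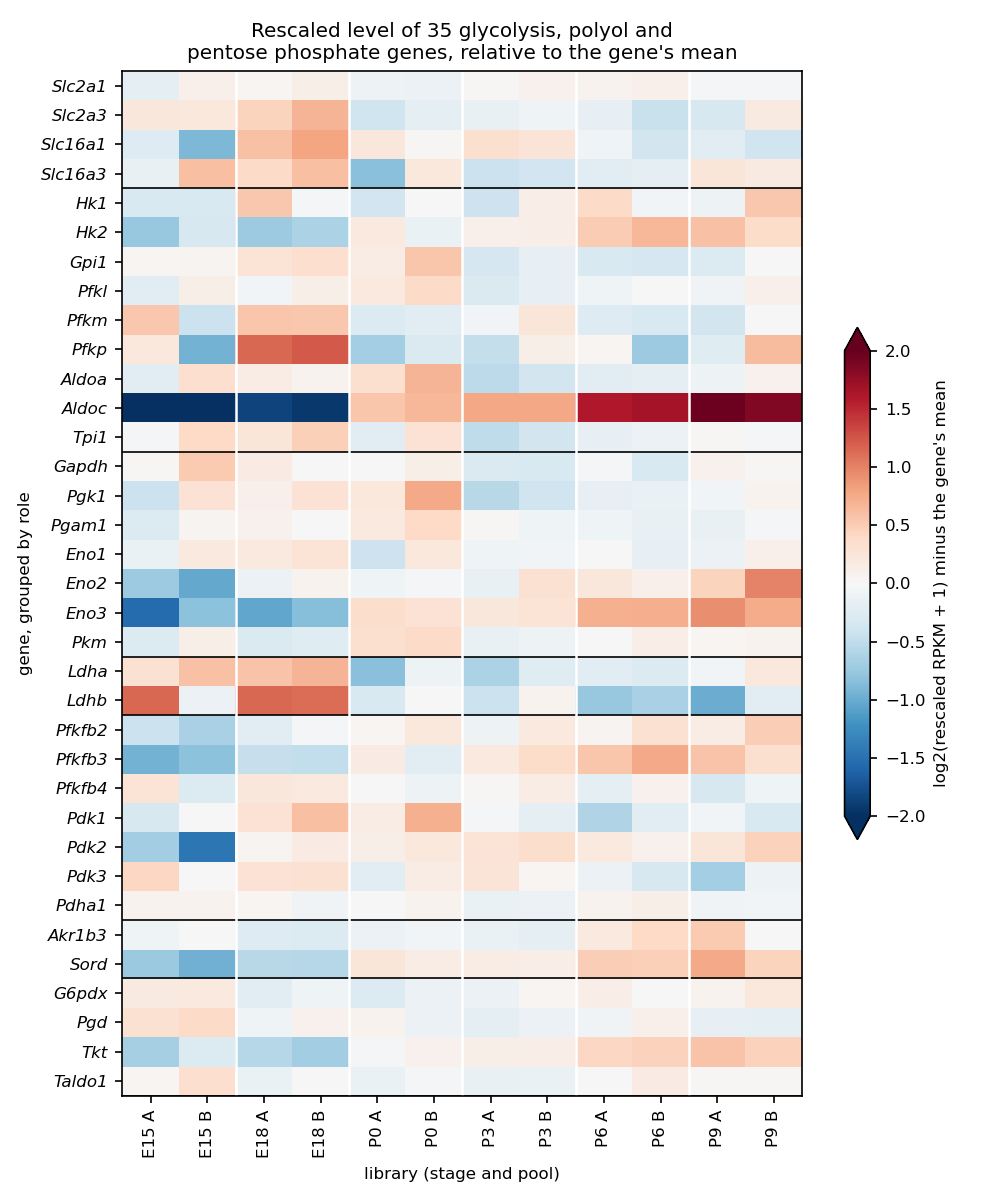
Rescaled level of each of the 35 tested members (rows, grouped by role between black lines) in the 12 libraries (columns), as log2(rescaled RPKM + 1) minus the gene's mean over libraries; red is higher and blue lower, and colours saturate at the ends of the scale. Aldoc and Eno3 are high in the 8 postnatal libraries and low in the 4 embryonic ones, and Ldha and Ldhb are lower postnatally, with Ldhb already lower in E15 B.

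P9 against E18 gave 15 called members (42.7% of all genes), 8 higher (22.2%) and 7 lower (20.5%). Those higher were Aldoc, Eno3, Sord, Tkt, Hk2, Pfkfb3, Eno2 and Akr1b3; those lower were Ldhb, Slc16a1, Pfkm, Pdk3, Slc2a3, Pdk1 and Gpi1. With Rax as a covariate 7 were called (11.7% of all genes): Aldoc, Eno2, Eno3, Sord, Tkt and Pdk2 higher and Pdk1 lower, so 6 of the 7 lower calls were lost. Without either E18 pool 9 were called, without P9 A 10, and without both E15 libraries 21. On the deposited scale P9 against E15 read otherwise: 8 members were higher (8.65% of all genes), and 20 were lower (55.4%); the median log2 difference of all genes was -0.54 there. The members' median on that scale was -0.57. Aldoc, Eno3, Eno2, Sord, Pdk2, Pfkfb3, Hk2 and Tkt were higher on both scales.

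**Figure D2:**
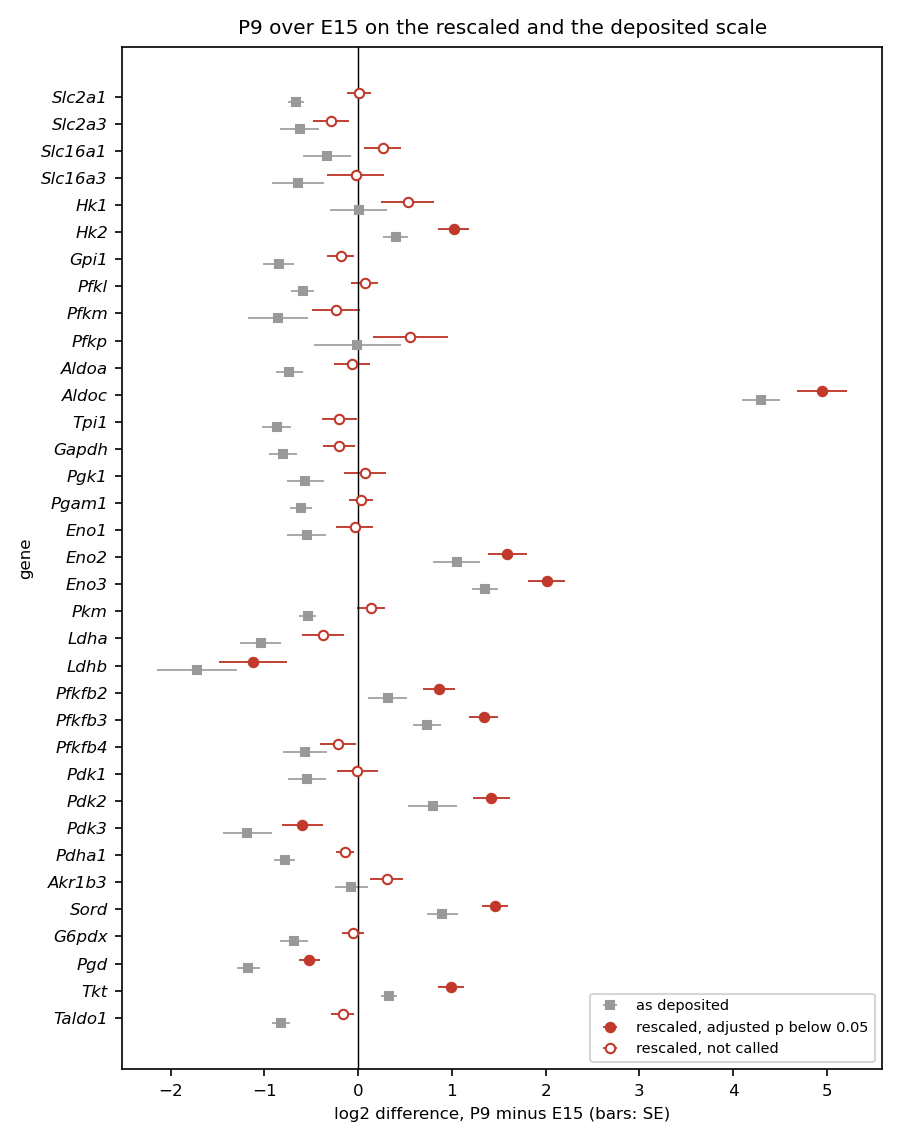
Log2 difference of P9 minus E15 for the 35 tested members, with the standard error of the limma fit as bars. Circles are on the rescaled scale, filled where the adjusted p was below 0.05, and grey squares are on the deposited scale, which lies lower for every member shown; Aldoc stands at 4.95 and the next, Eno3, at 2.01 on the rescaled scale.

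The most abundant carrier was Slc2a1 (GLUT1), the main glucose carrier of the lens and of the blood-brain barrier. It had 283 and 280.1 RPKM at E15, 311 and 338 at E18, 205 and 202 at P0, 227 and 247 at P3, 202 and 194 at P6 and 173 and 183 at P9. The deposited values were lower in all 8 postnatal libraries than in any embryonic one, while the rescaled ones overlapped: 222 ± 0.00781 at P9 and 222 ± 32.1 at E15 (SD, n = 2 pools each). The rescaled difference was 0.01 ± 0.13, adjusted p = 0.974, but on the deposited scale it was -0.66 ± 0.09 with an adjusted p of 0.000132, so its direction depends on the scale. Slc2a3 (GLUT3), the high-affinity carrier of neurons, had 1.74 and 1.36 RPKM at E15, 2.09 and 2.78 at E18, 0.424 and 0.647 at P0, 0.689 and 0.809 at P3, 0.591 and 0.316 at P6 and 0.403 and 0.941 at P9. These were below 1 in every postnatal library and above it in every embryonic one, and the P0 level was lower than at E18 (log2 difference -0.85 ± 0.19, adjusted p = 0.00819). Slc2a3 passed the filter of 1 RPKM only through its embryonic libraries. Its calls of a lower postnatal level in limma are therefore not independent of that filter.

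Lactate leaves cells through Slc16a1 (MCT1) and Slc16a3 (MCT4), the carrier of strongly glycolytic cells. Slc16a1 had 11.3 and 5.44 RPKM at E15, 20.1 and 23.8 at E18, 11.04 and 9.45 at P0, 12.1 and 11.98 at P3, 7.75 and 5.73 at P6 and 6.30 and 5.87 at P9. Both E18 pools stood above all other libraries. E18 was higher than E15 (log2 difference 1.26 ± 0.20, adjusted p = 0.00669), and P9 was lower than E18 (rescaled level 7.62 ± 0.686 at P9, against 16.3 ± 1.67 at E18, SE of the log2 difference 0.20, limma adjusted p = 0.00264). With Rax as a covariate this call was lost (log2 difference -0.38 ± 0.24, adjusted p = 0.363). Slc16a3 had 12.4 and 17.5 RPKM at E15, 17.2 and 20.9 at E18, 4.84 and 10.98 at P0, 6.80 and 7.33 at P3, 6.90 and 6.55 at P6 and 9.05 and 9.15 at P9. Its P0 pools differed more than 2-fold, and no comparison between stages passed on the rescaled scale over all libraries. P0 was lower than E18 without the E15 libraries (-0.80 ± 0.26, adjusted p = 0.0307) and on the deposited scale (-1.26 ± 0.28, adjusted p = 0.00535), where P9 was also lower than E18 (-0.98 ± 0.28, adjusted p = 0.00977). Among 11 other glucose and monocarboxylate carriers tested, 5 were higher at P9 than at E15, where 21.3% of all genes were. At P9 against E18 4 were higher and 3 lower, where 22.2% of all genes were higher and 20.5% lower. Those higher than at E15 include the chaperones of the MCT carriers: embigin (Emb; log2 difference 1.75 ± 0.16, adjusted p = 1.95e-05) and basigin (Bsg; 0.68 ± 0.18, adjusted p = 0.0138). Slc16a10, an aromatic amino acid carrier (1.30 ± 0.20, adjusted p = 0.000544), and Slc16a12, a creatine carrier linked to cataract in humans (0.97 ± 0.21, adjusted p = 0.00448), were also higher. Bsg was abundant, with 246 and 303 RPKM at E15, 251 and 251 at E18, 269 and 309 at P0, 224 and 256 at P3, 256 and 231 at P6 and 284 and 267 at P9. Slc16a10 had 0.841 and 0.422 RPKM at E15, 7.54 and 8.53 at E18 and 1.82 and 2.44 at P9, and was lower at P9 than at E18 (-0.94 ± 0.20, adjusted p = 0.0038).

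In upper glycolysis 2 of 9 members, Aldoc and Hk2, were higher at P9 than at E15, a share near the 21.3% of all genes. Aldoc, aldolase C (chromosome 11, 78323073-78327781, GRCm38.p6), had 13.2 and 24.5 RPKM at E15, 44.8 and 43.5 at E18, 176 and 189 at P0, 208 and 217 at P3, 321 and 311 at P6 and 379 and 369 at P9. Every stage lay above the one before it, with no overlap between neighbouring stages. At P9 the rescaled level was 468 ± 28.2, against 15.4 ± 8.54 at E15 (log2 difference 4.95 ± 0.27, adjusted p = 7.35e-07). Without E15 A this was 4.39 and without E15 B 5.50. The largest single step was P0 over E18 (2.50 ± 0.27, adjusted p = 0.000458); E18 was also higher than E15 (1.15 ± 0.27, adjusted p = 0.0292). Aldoa, aldolase A (chromosome 7, 126795234-126800994), had 227 and 274 RPKM at E15, 279.5 and 271 at E18, 227 and 289.7 at P0, 127 and 149 at P3, 136 and 131 at P6 and 136 and 164 at P9. Its postnatal levels from P3 on were below all earlier libraries on the deposited scale, yet P9 over E15 did not pass after rescaling (-0.07 ± 0.19, adjusted p = 0.802). Listed Aldoc exceeded listed Aldoa in every library from P3 on and in none before. Part of Aldoa's sequence (38.6% of its 32-base windows) is also found elsewhere in the genome, and none of Aldoc's is. The stage of this crossing is therefore uncertain.

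Hexokinase traps glucose in the cell by phosphorylating it. Hk2, the insulin-responsive isozyme of muscle, had 10.5 and 11.95 RPKM at E15, 10.2 and 11.2 at E18, 14.8 and 11.5 at P0, 13.9 and 14.9 at P3, 16.2 and 17.005 at P6 and 15.9 and 14.4 at P9. It was higher at P9 than at E15 (log2 difference 1.02 ± 0.17, adjusted p = 0.000846). Hk1, the isozyme of most tissues, had 3.94 and 3.21 RPKM at E15, 7.70 and 4.95 at E18, 2.47 and 3.55 at P0, 2.47 and 4.20 at P3, 4.29 and 2.75 at P6 and 2.63 and 4.78 at P9. Its pools differed at most stages, in no common direction, and no comparison passed on the rescaled scale over all libraries. On the deposited scale Hk1 was lower at P0 than at E18 (-0.855 ± 0.302, adjusted p = 0.036). Of the phosphofructokinases, which catalyse the main committed step, the liver form Pfkl led with 47.01 to 93.7 RPKM, ahead of the muscle form Pfkm (6.88 to 24.8 RPKM). The platelet form Pfkp had 9.71 and 2.91 RPKM at E15, 18.7 and 20.3 at E18, 3.12 and 4.36 at P0, 3.79 and 6.43 at P3, 5.02 and 2.46 at P6 and 3.68 and 7.82 at P9. Both E18 pools were far above the rest, and P0 was lower than E18 (-1.67 ± 0.40, adjusted p = 0.0106). E15 A also exceeded E15 B, by 6.81 RPKM for Pfkp and 15.1 RPKM for Pfkm, as it did in the retinal markers. Gpi1 (glucose phosphate isomerase; 31.1 to 86.7 RPKM) and Tpi1 (triose phosphate isomerase; 113 to 313 RPKM) changed in the joint test (adjusted p = 0.011 and 0.0478), and both were highest at E18 on the deposited scale.

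**Figure D3:**
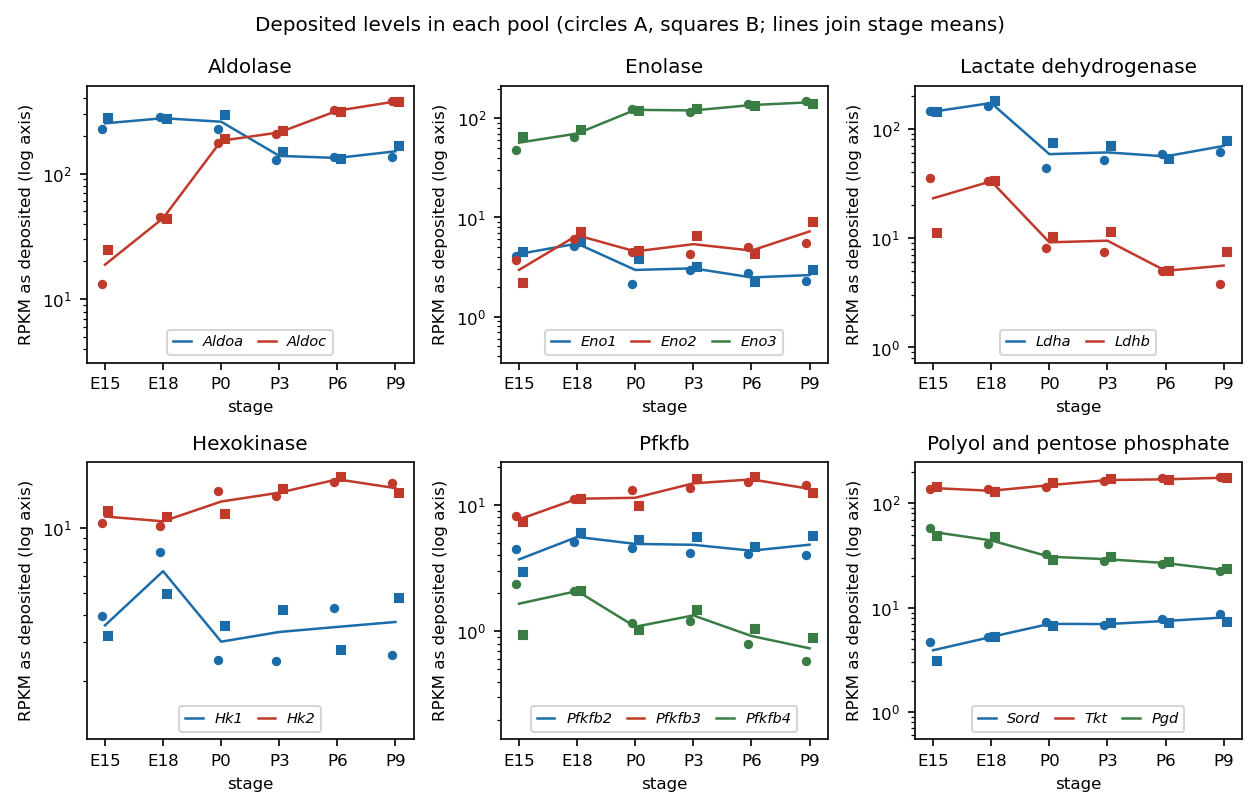
Deposited RPKM (log axes) of 15 members by stage; circles are pool A, squares pool B, and lines join stage means. Aldoc crosses Aldoa between P0 and P3, Eno3 lies far above Eno1 and Eno2 at each stage, and Ldha and Ldhb are lower from P0 on.

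In lower glycolysis beta-enolase had the highest listed level of the 3 enolases, although most of Eno1's sequence is found elsewhere and its level is uncertain. Eno3, known as the muscle enolase, had 48.3 and 65.4 RPKM at E15, 64.8 and 75.8 at E18, 125 and 119 at P0, 116 and 124 at P3, 140.2 and 132 at P6 and 151 and 139.6 at P9. All postnatal libraries lay above all embryonic ones, and P9 was higher than E15 (log2 difference 2.01 ± 0.20, adjusted p = 3.1e-05), as was P0 than E18 (1.27 ± 0.20, adjusted p = 0.00153). Eno2, the neuronal enolase, had 3.72 and 2.20 RPKM at E15, 6.02 and 7.20 at E18, 4.46 and 4.63 at P0, 4.28 and 6.48 at P3, 5.04 and 4.23 at P6 and 5.54 and 8.93 at P9. It was also higher at P9 than at E15 (1.59 ± 0.21, adjusted p = 0.000205). The P9 pools had 5.54 and 8.93 RPKM of it beside photoreceptor marker sums of 139 and 328 RPKM; whether retinal RNA bears on this was not tested. Eno1, alpha-enolase, was at 2.13 to 5.71 RPKM and did not pass on the rescaled scale. On the deposited scale it was lower at P9 than at E15 (-0.55 ± 0.205, adjusted p = 0.0366).

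Pkm, pyruvate kinase, had the highest mean RPKM of all members over the 12 libraries, though Aldoc exceeded it in both P9 pools. It had 456 and 485 RPKM at E15, 421 and 447 at E18, 466 and 489 at P0, 344 and 367 at P3, 327 and 336 at P6 and 311 and 337 at P9. Its rescaled stage mean was highest at P0 (498 ± 17.5, against 323 ± 7.73 at E18; log2 difference 0.62 ± 0.15, adjusted p = 0.00976), and P9 over E15 did not pass (0.13 ± 0.15, adjusted p = 0.499). On the deposited scale the last difference was -0.54 ± 0.09 with an adjusted p of 0.000577. The M1 and M2 forms of Pkm are splice forms of this gene and are not separated in the tables.

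Gapdh, Pgk1 and Pgam1, which act in lower glycolysis, did not pass between stages on the rescaled scale over all libraries; without the E15 libraries Pgk1 was lower at P3 than at P0. They had 4.30 to 12.04 RPKM, 12.4 to 31.96 RPKM and 15.6 to 31.4 RPKM. At P9 against E15 all 3 were lower on the deposited scale: Gapdh (log2 difference -0.80 ± 0.15, adjusted p = 0.00109), Pgk1 (-0.56 ± 0.19, adjusted p = 0.0264) and Pgam1 (-0.61 ± 0.11, adjusted p = 0.0011). The rescaled differences of Pgk1 and Pgam1 were above 0. Gapdh was also lower at P0 than at E18 on that scale (-0.47 ± 0.15, adjusted p = 0.0233). These levels are uncertain. Of all 32-base windows of the transcript, the share also found elsewhere in the genome was 85.8% for Gapdh, 94.0% for Pgk1 and 96.96% for Pgam1. It was 90.6% for Akr1b3, 77.0% for Eno1, 61.4% for Pkm, 51.5% for Ldha, 51.3% for Ldhb and 43.6% for Sord. For Gpi1, Aldoa and Tpi1 it was 39.8%, 38.6% and 37.8%. It was 0 for Aldoc, Eno3, Tkt, Pgd, Slc2a1, Slc2a3, Slc16a1, Slc16a3 and Pfkm. The sources used here do not say how reads that match several places were counted. Gapdh, one of the most abundant mRNAs of most tissues, stood below Pdha1 in every library.

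**Figure D4:**
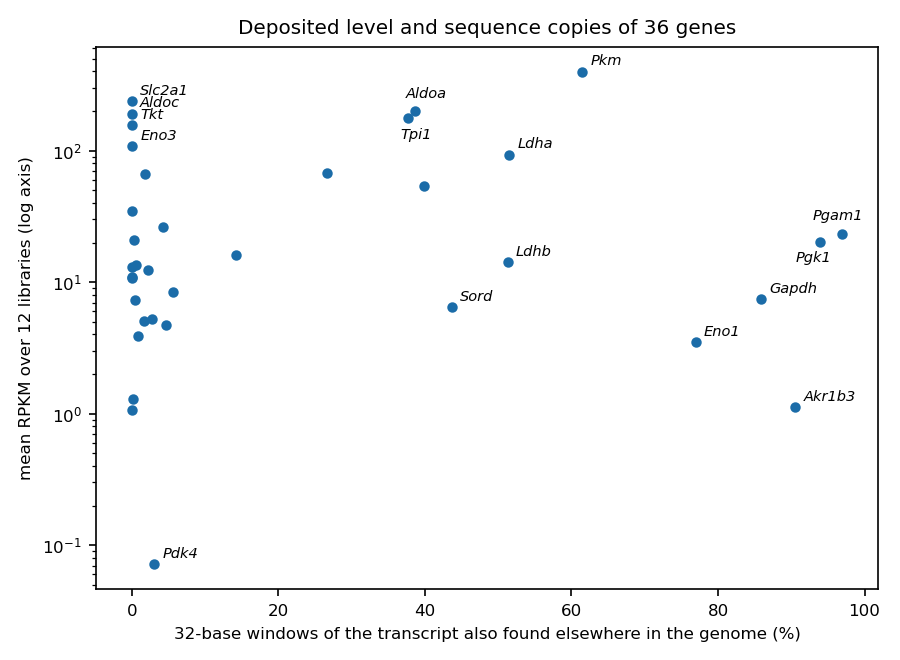
Mean deposited RPKM over 12 libraries (log axis) of the 36 members against the share of their 32-base transcript windows that occur elsewhere in the genome; each point is a gene. High and low levels occur on both sides: Pkm has the highest mean at a share of 61.4%, Slc2a1 and Aldoc are high and Slc2a3 low at a share of 0, and Gapdh, Eno1 and Akr1b3 are low at 77.0% to 90.6%.

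Outside the members, the muscle phosphoglycerate mutase Pgam2 was listed above Pgam1 in every library, a ranking that is uncertain because nearly all of Pgam1's sequence is found elsewhere. It had 70.5 and 156 RPKM at E15, 90.97 and 72.6 at E18, 316 and 315 at P0, 299 and 295 at P3, 576 and 534 at P6 and 604 and 585 at P9. It was higher at P9 than at E15 (log2 difference 3.16 ± 0.34, adjusted p = 6.47e-05), and at P0 than at E18 (2.43 ± 0.34, adjusted p = 0.00117). The sum of 8 skeletal muscle markers was 91.5 and 93.1 RPKM at P9, against 76.8 and 149 at E15, and its highest value was 154 in P0 A. Most of it was Pygm, muscle glycogen phosphorylase, at 29.8 to 128 RPKM over all libraries, and Actn2, a sarcomere actinin, which had 21.9 and 20.3 RPKM at P9 against 1.13 and 4.05 at E15. In the postnatal libraries Mylpf, a myosin light chain, had at most 2.51 RPKM, Tnnt3 at most 0.667, and Ckm, Myh3, Myh8 and Acta1 at most 0.622. The part of muscle RNA in the Pgam2 and Eno3 values was not tested. Of 17 further glycolysis genes tested, 5 were higher at P9 than at E15 and 6 lower, where 21.3% and 19.6% of all genes were. Pgm1, Gpd2, Hk3, Pfkfb1, Pgam5 and Adpgk were the lower ones. Hk3 and Pfkfb1 passed the filter only through embryonic libraries, so their calls are not independent of it. The glycerol phosphate dehydrogenases Gpd1 (3.18 ± 0.17, adjusted p = 7.1e-07) and Gpd1l (2.19 ± 0.17, adjusted p = 8.94e-06), which pass glycolytic carbon to glycerol lipids, and Hkdc1, a hexokinase-like gene (0.93 ± 0.33, adjusted p = 0.0449), were higher too. Hkdc1 was lower at P0 than at E18 (-1.42 ± 0.33, adjusted p = 0.00908). Gpd1 had 1.82 and 2.68 RPKM at E15, 2.61 and 2.89 at E18, 10.8 and 9.66 at P0, 14.5 and 12.96 at P3, 15.7 and 16.4 at P6 and 18.3 and 20.3 at P9, and its postnatal libraries all lay above its embryonic ones.

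Both lactate dehydrogenase genes were lower at P0 than at E18. Ldha, the A subunit that favours lactate formation, had 144 and 142 RPKM at E15, 163 and 180.2 at E18, 43.7 and 73.3 at P0, 51.5 and 69.9 at P3, 58.7 and 52.9 at P6 and 61.3 and 77.7 at P9. All postnatal libraries were below all embryonic ones, on the deposited and on the rescaled scale. P0 was lower than E18 (log2 difference -1.10 ± 0.22, adjusted p = 0.0049), and P9 over E15 did not pass after rescaling (-0.38 ± 0.22, adjusted p = 0.203), while on the deposited scale it was -1.04 ± 0.22 with an adjusted p of 0.00226. Ldhb, the B subunit of heart and neurons, had 35.1 and 11.1 RPKM at E15, 32.98 and 33.1 at E18, 8.07 and 10.2 at P0, 7.51 and 11.4 at P3, 4.99 and 5.05 at P6 and 3.80 and 7.41 at P9. E15 B stood beside the postnatal pools rather than beside E15 A. P9 was lower than E15 (-1.12 ± 0.36, adjusted p = 0.0314) and than E18 (-1.74 ± 0.36, adjusted p = 0.00362), and P0 than E18 (-1.29 ± 0.36, adjusted p = 0.0205), but without E15 A the difference from E15 was -0.48 with an adjusted p of 0.221, and it also did not pass without P9 A. With Rax as a covariate P9 against E18 stood at -0.45 ± 0.39 (adjusted p = 0.518).

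Around birth members moved in both directions on the rescaled scale. P0 against E18 gave 13 called members (35.1% of all genes). It gave 7 higher (18%): Aldoc, Eno3, Sord (0.76 ± 0.13, adjusted p = 0.00266), Hk2, Tkt, Pkm and Pfkfb3. It gave 6 lower (17.1%): Pfkp, Ldhb, Ldha, Slc2a3, Pfkm and Slc16a1. On the deposited scale these 6 were lower too, but only Aldoc and Eno3 were higher. There Sord, Hk2, Tkt, Pkm and Pfkfb3 did not pass in limma (adjusted p = 0.0921, 0.113, 0.11, 0.208 and 0.957). The median log2 difference on that scale was -0.41 over all genes and -0.45 over members. Retinal marker sums fell at this step, to 80.7 and 65.4 RPKM at P0, against 678 and 635 at E18. Rax itself had 11.7 and 9.42 RPKM at P0, against 56.2 and 61.5 at E18, so its effect and that of this step cannot be told apart. With Rax as a covariate, only Aldoc passed among the members in limma (log2 difference 1.44 ± 0.23, adjusted p = 0.0391), as did 53 of all genes (0.368%). Under it Ldhb stood at 0.06 ± 0.40, Pfkp at -0.05 ± 0.38, Pfkm at 0.25 ± 0.23 and Slc16a1 at 0.09 ± 0.24, while Ldha stood at -1.28 ± 0.38 and Eno3 at 0.60 ± 0.21, none of them past the threshold. Without E18 A 6 members were called in place of 13, without E18 B 5, and without P0 A 6.

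E18 against E15 gave 5 called members (8.11% of all genes). All 5 were higher (Pdk2, Slc16a1, Aldoc, Eno2 and Pfkp, where 4.97% of all genes were) and 0 lower (3.14%). At an unadjusted p below 0.05 limma had 8 members higher and 2 lower, beside 1939 and 1864 of all 14405 genes. The count of calls was 11 without E15 A, 1 without E18 A and 0 without E18 B, and 3 without either P0 or either P6 pool.

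After birth no step between neighbouring stages passed in limma over all libraries. P3 against P0 gave 0 members called (0.389% of all genes, 0.285% higher and 0.104% lower). At an unadjusted p below 0.05 in limma 8 of the 35 members fell and 0 rose, beside 779 and 914 of all 14405 genes. P6 against P3 gave 0 (1.26%, 0.514% higher and 0.75% lower). Unadjusted, 8 members were higher and 1 lower, beside 981 and 1047 of all 14405 genes. P9 against P6 gave 0 (0.292%, 0.222% higher and 0.0694% lower). Unadjusted, 1 member was higher and 0 lower, beside 604 and 437 of all 14405 genes. The spread of E15 enters these tests. Fitted without both E15 libraries, Aldoa (-0.95 ± 0.12, adjusted p = 0.00591), Pgk1 (-0.96 ± 0.16, adjusted p = 0.0182), Pfkl and Pkm were lower at P3 than at P0, where 0.958% of all genes were lower and 1.04% higher. Leaving out either E15 pool alone also gave 4. In the same fit Aldoc (0.86 ± 0.07, adjusted p = 0.000411), Eno3 and Tkt were higher and Slc16a1 lower at P6 than at P3, where 4.39% of all genes were higher and 3.69% lower. The P0 pools differed from each other in Pgk1, with 21.3 and 31.4 RPKM.

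Pfkfb enzymes set the level of fructose 2,6-bisphosphate, which switches phosphofructokinase on. Pfkfb3, a form that acts mainly as the kinase, had 8.13 and 7.28 RPKM at E15, 11.3 and 11.2 at E18, 13.1 and 9.75 at P0, 13.6 and 16.1 at P3, 15.3 and 16.6 at P6 and 14.3 and 12.6 at P9. It was higher at P9 than at E15 (log2 difference 1.34 ± 0.15, adjusted p = 9.82e-05). Pfkfb2, the heart form, had 4.47 and 2.96 RPKM at E15, 5.13 and 6.05 at E18, 4.61 and 5.25 at P0, 4.14 and 5.55 at P3, 4.06 and 4.64 at P6 and 4.05 and 5.66 at P9, and was higher as well (0.86 ± 0.17, adjusted p = 0.00282), though on the deposited scale it did not pass. Pfkfb4 had 0.587 to 2.37 RPKM and did not pass on the rescaled scale over all libraries. On the deposited scale it was lower at P9 than at E18 (-0.837 ± 0.237, adjusted p = 0.00982).

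Of the 7 regulators tested, 3 were higher and 1 lower at P9 than at E15, where 21.3% of all genes were higher and 19.6% lower. Pdk kinases switch off pyruvate dehydrogenase and so keep pyruvate out of mitochondria. Pdk2, the most widespread form, had 16.9 and 7.63 RPKM at E15, 27.7 and 30.6 at E18, 20.8 and 22.2 at P0, 23.7 and 25.97 at P3, 19.4 and 16.6 at P6 and 18.6 and 22.8 at P9. It stood above the other Pdk genes in every library but E15 B, where Pdk3 was higher. It was higher at P9 than at E15 (1.42 ± 0.20, adjusted p = 0.000329), and E18 was already higher than E15 (1.18 ± 0.20, adjusted p = 0.00941). Pdk3 had 14.9 and 8.66 RPKM at E15, 12.6 and 13.1 at E18, 6.09 and 8.21 at P0, 9.03 and 8.01 at P3, 5.83 and 4.62 at P6 and 3.39 and 5.81 at P9. It was lower at P9 than at E15 (-0.59 ± 0.22, adjusted p = 0.0489), a call that was lost on leaving out any 1 of 10 libraries, with an adjusted p of up to 0.344. Pdk1, a target of HIF1, was at 2.27 to 10.1 RPKM and was lower at P9 than at E18 (-0.62 ± 0.22, adjusted p = 0.0405). Pdk4, the form induced by fasting, was at most 0.19 RPKM and was not tested. Pdha1, the pyruvate dehydrogenase subunit the kinases act on, had 37.6 and 30.3 RPKM at E15, 34.3 and 32.5 at E18, 24.3 and 25.3 at P0, 22.4 and 23.6 at P3, 22.2 and 21.6 at P6 and 18.5 and 19.8 at P9. Its deposited level was lower in every postnatal library, and its rescaled difference did not pass (-0.14 ± 0.10, adjusted p = 0.271). Of 10 further genes of pyruvate entry, Mpc2, a subunit of the mitochondrial pyruvate carrier, was higher at P9 than at E15 and 2 were lower. Among all genes 21.3% were higher and 19.6% lower.

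Every isozyme family was also read as shares within a library, which no scaling of libraries can change. The mean of the 8 postnatal libraries was set against that of the 4 embryonic ones in an exact permutation test, two-sided, over 495 ways to choose the libraries; the smallest p is 0.00404. Of 18 shares, 9 (50%) passed after Benjamini-Hochberg adjustment, and in 6 (33.3%) the groups did not overlap. Retinal marker sums also differed between the 2 periods, and their part in the shares was not tested.

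Aldoc made up 61.0% ± 12.9 of aldolase RPKM in the postnatal libraries (39.5% to 73.6%, median 65.6%), against 10.3% ± 4.18 in the embryonic ones (5.49%, 8.21%, 13.8% and 13.8%; SD, exact p = 0.00404, adjusted p = 0.0121). Aldoa shares part of its sequence with copies elsewhere (38.6% of its windows), so the level of this share is uncertain. The mean share was 6.85% at E15 and 13.8% at E18. After birth it went through 41.6% (P0), 60.6% (P3) and 70.4% (P6) to 71.4% (P9). Eno3 made up 94.1% ± 1.17 of enolase RPKM postnatally, against 86.9% ± 2.60 before birth, and Eno1 2.03% ± 0.517, against 6.69% ± 0.486 (exact p = 0.00404, adjusted p = 0.0121 each). Eno1 shares sequence with copies elsewhere, so its share is uncertain; 1 RPKM added to each enolase left both calls in place. Eno2 did not pass (exact p = 0.0364, adjusted p = 0.0655), although its own level rose.

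Among the Pdk genes Pdk2 held 67.5% ± 5.03 postnatally, against 48.9% ± 10.4 before birth, and Pdk3 19.7% ± 3.17, against 32.8% ± 8.76 (exact p = 0.00404, adjusted p = 0.0121 each). Pfkfb4 held 5.19% ± 1.28, against 11.6% ± 3.10 (exact p = 0.00404, adjusted p = 0.0121), and Pfkfb3 70.4% ± 5.19, against 59.6% ± 4.59 (exact p = 0.0121, adjusted p = 0.0273). Hk2 held 81.4% ± 4.68 of the 2 hexokinases, against 69.5% ± 9.23 (exact p = 0.0202, adjusted p = 0.0404). Slc2a3 held 0.294% ± 0.106 of the 2 glucose carriers, against 0.644% ± 0.138 (exact p = 0.00808, adjusted p = 0.0208). The shares of Ldhb (10.7% ± 3.41, against 14.8% ± 5.28; exact p = 0.133, adjusted p = 0.15) and Slc16a3 did not pass, nor did those of the 3 phosphofructokinases. The Hk2, Pfkfb3 and Slc2a3 calls were each lost on leaving out E15 A, E18 A or E18 B, Hk2 also on leaving out 5 other libraries. Without both E15 libraries 2 embryonic ones remain, the exact p cannot go below 0.0444, and none of the 18 passed; the Aldoc difference was then 47.2 points, against 50.7 with all libraries.

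**Figure D5:**
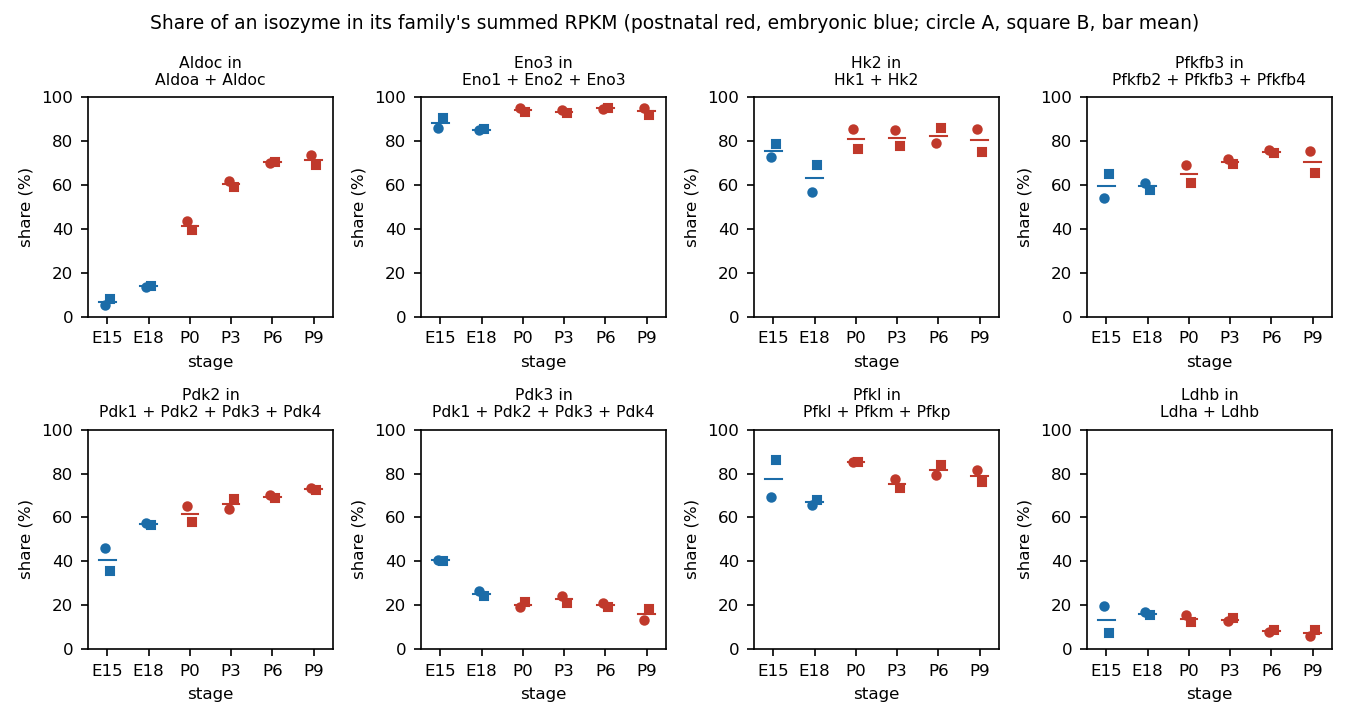
Share of 8 isozymes in their family's summed RPKM (vertical axis, %), by stage; circles are pool A, squares pool B and bars stage means, with postnatal stages in red and embryonic in blue. The Aldoc share is 39.5% or more in each postnatal library and 13.8% or less in each embryonic one, while the Ldhb and Pfkl shares overlap between the 2 periods.

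In the polyol pathway the gene of the second step rose. Sord, which oxidises sorbitol to fructose, had 4.71 and 3.12 RPKM at E15, 5.23 and 5.28 at E18, 7.28 and 6.73 at P0, 6.87 and 7.09 at P3, 7.75 and 7.19 at P6 and 8.79 and 7.33 at P9. All postnatal libraries lay above all embryonic ones. P9 was higher than E15 (log2 difference 1.46 ± 0.13, adjusted p = 2.1e-05) and than E18 (1.17 ± 0.13, adjusted p = 0.00011), also with Rax as a covariate. Akr1b3, aldose reductase, which forms sorbitol, was listed at 0.885 to 1.58 RPKM, with most of its sequence also found elsewhere; it was higher at P9 than at E18 (0.52 ± 0.18, adjusted p = 0.0368), but not with Rax as a covariate (0.21 ± 0.28, adjusted p = 0.706) or on the deposited scale (0.14 ± 0.17, adjusted p = 0.494). Of 13 other polyol, fructose and galactose genes, 3 were higher at P9 than at E15 and 5 lower, where 21.3% of all genes were higher and 19.6% lower. Akr1a1, aldehyde reductase (0.87 ± 0.16, adjusted p = 0.00156), was higher, and it was abundant, with 273 and 300.4 RPKM at E15, 259 and 267 at E18, 314 and 319 at P0, 353 and 367 at P3, 326 and 343 at P6 and 338 and 319 at P9. Dcxr, the xylulose reductase of the uronate pathway (-1.21 ± 0.33, adjusted p = 0.0136), Gmds of fucose synthesis (-0.89 ± 0.18, adjusted p = 0.00302) and Galm, galactose mutarotase (-0.67 ± 0.18, adjusted p = 0.0141), were lower.

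Of the 4 pentose phosphate members, Tkt was higher and Pgd lower at P9 than at E15. Tkt, transketolase, which returns pentoses to glycolysis and is abundant in cornea and lens, had 136 and 144 RPKM at E15, 136 and 128 at E18, 142 and 156 at P0, 163 and 171 at P3, 173 and 167 at P6 and 178 and 174 at P9. Its 6 libraries from P3 on lay above all embryonic ones, and P9 was higher than E15 (log2 difference 0.99 ± 0.14, adjusted p = 0.000338) and than E18 (1.16 ± 0.14, adjusted p = 0.000156). Pgd, phosphogluconate dehydrogenase, the second NADPH-forming enzyme, had 57.6 and 48.8 RPKM at E15, 40.8 and 47.4 at E18, 32.8 and 28.9 at P0, 27.9 and 30.4 at P3, 26.1 and 27.5 at P6 and 22.5 and 23.4 at P9. It was lower at P9 than at E15 (-0.52 ± 0.11, adjusted p = 0.00465), a call kept without each library in turn, with differences of -0.56 to -0.49; against E18 it did not pass (-0.18 ± 0.11, adjusted p = 0.223). G6pdx, the first enzyme of the pathway, was at 12.04 to 24.98 RPKM and did not pass at P9 against E15 after rescaling (-0.05 ± 0.12, adjusted p = 0.747). On the deposited scale it was lower (-0.688 ± 0.148, adjusted p = 0.00247). Taldo1, transaldolase, was at 51.2 to 94.8 RPKM and did not pass after rescaling either (-0.16 ± 0.12, adjusted p = 0.321), but with Rax as a covariate it was called. On the deposited scale Taldo1 was also lower (-0.824 ± 0.093, adjusted p = 5.43e-05). Of 9 other pentose phosphate genes, 3 were lower at P9 than at E15, where 19.6% of all genes were: Rpia, ribose phosphate isomerase (-1.13 ± 0.23, adjusted p = 0.00285), Dera and Prps2. At P9 against E18 2 were higher (Rbks and Pgls) and 2 lower (Rpia and Prps2), where 22.2% of all genes were higher and 20.5% lower.

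Over all 36 members, deposited sums were 2151 ± 23.7 (E15), 2384 ± 121 (E18), 2065 ± 173 (P0), 1814 ± 120 (P3), 1812 ± 37.5 (P6) and 1903 ± 74.3 RPKM (P9; SD, n = 2 pools each). After rescaling they were 1701 ± 275 (E15), 1772 ± 59.4 (E18), 2154 ± 183 (P0), 1821 ± 71.5 (P3), 2227 ± 63.2 (P6) and 2379 ± 1.41 (P9). Of the RPKM outside the crystallins, members took stage means of 0.682% (E15) to 0.813% (E18). By role, upper glycolysis was at 970 ± 0.896 rescaled RPKM at P9, against 549 ± 107 at E15. Lactate dehydrogenase was at 93.6 ± 13.9, against 130 ± 5.01, and the pentose phosphate enzymes at 332 ± 11.5, against 245 ± 33.6. These sums are a description, with no test.

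Genes that respond to hypoxia were read beside the glycolytic ones, several of which are themselves HIF targets. Of 22 tested, 6 were higher at P9 than at E15 and 1 lower, where 21.3% of all genes were higher and 19.6% lower. The split was 6 and 5 at P9 against E18, where 22.2% of all genes were higher and 20.5% lower. It was 5 and 5 at P0 against E18, where 18% were higher and 17.1% lower. Ndrg1, a stress-induced gene, rose most (4.42 ± 0.21, adjusted p = 3.48e-07) and had 27.7 and 37.7 RPKM at E15, 52.7 and 45.8 at E18, 189.9 and 237 at P0, 246 and 239 at P3, 332 and 361 at P6 and 436 and 467 at P9. P4ha2, a collagen prolyl hydroxylase (3.20 ± 0.16, adjusted p = 4.97e-07), and Hif1a itself (1.41 ± 0.13, adjusted p = 2.6e-05) were higher, and Fam162a (-0.79 ± 0.17, adjusted p = 0.00433) was lower. At P9 against E18 Hif3a (-1.62 ± 0.18, adjusted p = 8.8e-05) and Ankrd37 (-1.26 ± 0.26, adjusted p = 0.00353) were lower, as were Epas1, Egln3 and Fam162a.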

How the data were processed

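Whole lenses of 6 stages were measured by RNA-seq in 2 pools each; the 12 mRNA tables are used here, and the 12 miRNA libraries are not. The values are RPKM per gene as the authors deposited them; Bowtie 0.12.8, SAMtools 0.1.18 and the builds GRCm38 and mm10 are named in the submitters' processing notes, and the sources used here do not state how multiply mapped reads were treated. Depth of 20150000 to 43700000 reads per library was estimated from the steps of low values, 70.6% to 76.9% of which came out whole within 0.1 read, too few for a count test.

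RPKM was divided by median-ratio factors, and log2(rescaled RPKM + 1) was tested with limma 3.58.1 (R 4.3.3), 1 mean per stage and a trended prior, over 14405 genes with at least 1 RPKM in at least 2 libraries. The fit leaves 6 residual degrees of freedom, to which limma's prior adds further ones. P-values were adjusted by Benjamini-Hochberg over all genes, and the fit was tested on simulated data. SE are limma's, and adjusted p below 0.05 was called. Isozyme shares were tested by exact permutation of libraries, not of stages (scipy 1.17.1), adjusted over the 18 shares. Copies were counted as 32-base transcript windows found elsewhere in GRCm38.p6. Members, gene lists and named genes were chosen with earlier results of these data known. Every library is given for members called at P9 against E15 or changed by at least 1 log2 unit over stages, for the most abundant member of each role and for isozyme partners; of each further list, up to 4 called genes with the largest change are named. Alternatives covered scaling, pseudocount, filter, pool letter, Rax as a covariate and leaving out libraries.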

Additional observations from a re-analysis of the deposited data

Results flagged for a closer look

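In 4 of 36 groups of shares the highest or lowest library stood apart from the others by more than Dixon's 95% critical value. The usual chance rate of about 1 group in 20 does not apply here. The groups mix stages, and the shares of 1 family depend on each other. In E15 B the Pfkl share of the phosphofructokinases was 86.2%, against 69.1% in the next embryonic library, the Eno3 share of the enolases was 90.7% (next 86.1%), and the Pdk4 share of the Pdk genes was the lowest, at 0.112% (next 0.212%). E15 B also had the lowest embryonic sum of retinal markers, at 277 RPKM; its part in these shares was not tested. In P9 B the Slc2a3 share of the 2 glucose carriers was 0.513%, against 0.327% in the next postnatal library, and that library had the highest photoreceptor marker sum, at 328 RPKM.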

How the results depend on the processing

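As deposited, 31 members changed in the joint test in place of 19, and calls were 28 (20 lower) for P9 against E15, 29 for P9 against E18, 20 for P0 against E18 and 1 for P3 against P0. Scaled to summed RPKM without crystallins they were 29, 19 (10 lower), 28, 8 for E18 against E15 and 1 for P3 against P0; quantile normalization gave 9 lower at P9 against E15 and 1 for P3 against P0. No filter gave 1 lower there and 2 for E18 against E15. Rax as a covariate gave 7 for P9 against E18 (11.7% of all genes) and 1 for P0 against E18 (0.368%). Without both E15 libraries P3 against P0 and P6 against P3 gave 4 each, and 0 isozyme shares passed. At P9 against E15 direction reversed for Slc2a1 (deposited -0.66, quantile -0.46, without crystallins -0.30), Pkm (-0.54 deposited, -0.39 quantile), Pfkl (-0.59), Pgk1 (-0.56) and Pgam1 (-0.61 deposited). The member counts moved with the whole data set: as deposited, 55.4% of all genes were lower at P9 than at E15. The median log2 difference there was -0.542 over all genes and -0.567 over members as deposited. Without crystallins it was -0.255 and -0.264. Shares of all genes are not given for the other scalings or for fits that leave out 1 library. The cause of the changes between settings was not tested.

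Leaving out each library in turn gave 12 to 27 for the joint test (12 without E18 B), 10 to 15 for P9 against E15 (9 to 11 higher, 1 to 5 lower), 9 to 21 for P9 against E18 (9 without either E18 pool), 0 to 11 for E18 against E15, 5 to 16 for P0 against E18, 0 to 4 for P3 against P0 and for P6 against P3, 0 to 0 for P9 against P6 and 6 to 14 isozyme shares (14 without E15 B). The pool letters do not pair samples (3 of 15 stage pairs had a correlation of deviations over 0.1; range -0.27 to 0.215). With the letter as a replicate block, 11 members were called at P9 against E15, with Pdk3 lost (adjusted p = 0.0656), and 21 changed in the joint test. Estimated depth limits values under 1 RPKM, such as Slc2a3 and Pdk4.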

Other observations

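The P0 pools differed from each other in several members. Ldha had 43.7 and 73.3 RPKM, Slc16a3 4.84 and 11.0, Pgk1 21.3 and 31.4 and Pdk1 4.97 and 7.74 in P0 A and P0 B. On the rescaled scale 27 of the 35 members were higher in P0 B, as were 17 of 22 hypoxia and HIF genes. At P3 28 of the 35 members were higher in pool B and 10 of the 22 hypoxia genes. Members higher in pool B were 23 at E15, 22 at E18, 20 at P6 and 21 at P9, so this tilt was not particular to P0. Hypoxia genes higher in pool B were 14 at E15, 14 at E18, 11 at P6 and 8 at P9. The median difference of pool B minus pool A over all tested genes was -0.0119 log2 units at P0 and -0.00716 at P3. Bnip3, a mitophagy gene induced by HIF1, had 6.88 and 7.16 RPKM at P3, against 16.0 and 19.5 at P0. It was lower at P3 than at P0 in limma (log2 difference -1.27 ± 0.22, adjusted p = 0.0408). Of the 22 hypoxia and HIF genes tested it was the only 1 called at this step, where 0.389% of all genes were. The other 21 did not pass.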
